A study of Rattus norvegicus with 54 samples.

Results

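Biopsies of the subventricular zone (SVZ) of naive rats were set against undifferentiated neural progenitor cell (NPC) cultures grown from the SVZ of naive rats. The 2 groups were chosen by their sample titles and held 3 arrays each, 6 of the 54 samples of the series. The biopsies came from rats labelled healthy, with no strain given. The cultures came from healthy Dark Agouti rats and were harvested after passage 2. The biopsies are whole tissue, so each array carries RNA of every cell type in the piece, whereas a culture holds the cells that survived and divided through those passages. Beside them, 3 other groups of 3 arrays were used: SVZ biopsies of rats with experimental autoimmune encephalomyelitis (EAE), a rat model of multiple sclerosis, undifferentiated SVZ cultures from Dark Agouti rats with EAE, and naive SVZ cultures from Dark Agouti rats differentiated for 5 days after passage 2. The labels do not say whether replicates were separate animals or cultures, whether tissue was pooled, or whether biopsies and cultures came from the same rats, so any p-value below speaks of these arrays alone and may rest on technical spread. Ages were not given.

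The SVZ lines the lateral ventricle against the striatum and is one of the places in the adult rodent brain where neurons are still made. Astrocyte-like stem cells there give rise to dividing transit-amplifying cells, which give rise to neuroblasts that migrate to the olfactory bulb, and ciliated ependymal cells separate the zone from the cerebrospinal fluid. Cells taken from it are grown as NPC cultures, usually with mitogens such as EGF and FGF2; the medium used here was not given in the labels.

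Signals are the authors' linear intensities, 1 per probe set, and differences are on the log2(signal + 16) scale, biopsy minus undifferentiated culture, with the standard error of the limma fit. The arrays within each group were close to each other: the lowest correlation between replicates was 0.9897 in biopsies and 0.9923 in cultures, while biopsies and cultures correlated at 0.793 to 0.804. The median signal was 101 to 114 in biopsies and 80.6 to 86.5 in cultures, and 68.3% to 74.5% of probe sets exceeded a signal of 50 in biopsies, against 59.0% to 61.6% in cultures. Of 27342 probe sets, 2128 exceeded 50 on all 3 biopsies and on no culture, and 290 exceeded it on all 3 cultures and on no biopsy. The labels were checked against defining markers. The neuronal marker Snap25, the ciliary gene Cfap43 and the microglial gene Ctss exceeded 50 on all biopsies and on no culture. The progenitor gene Nes exceeded 50 on all cultures and on no biopsy, whereas Gfap, which SVZ stem cells express in tissue, exceeded 50 on no culture.

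Tissue and culture differed over most of the array. Of 19305 probe sets with a signal above 50 on at least 3 of the 6 arrays, 14849 (76.9%) differed by limma with a fold of at least 1.2 and an adjusted p no higher than 0.05, 6415 of them (33.2% of those tested) higher in biopsies and 8434 (43.7%) lower. That split depended on scaling: with the arrays scaled to their 75th percentile, 8168 were higher and 6872 lower, and the median difference over the tested probe sets moved to 0.11, against -0.10 as deposited. Because so many probe sets passed, groups of genes are read below by a stricter rule, a difference of at least 4-fold (2 on the log2 scale) with the same adjusted p. By that rule 2005 probe sets (10.4%) differed, 1384 (7.17%) higher in biopsies and 621 (3.22%) lower. Every 4-fold list count of this contrast is to be read beside these shares, and every 1.2-fold count beside 33.2% and 43.7%. In lists, the stricter rule counts a gene by 1 probe set, the one with the highest mean signal. For 21 genes the called probe sets disagreed in direction. Where a probe set stayed at or below 50 on all 3 arrays of 1 group, the fold is given as a bound computed against 50. Biopsies and cultures did not overlap for most members of many lists, such as 27 of 28 DNA replication and 23 of 24 neuronal and synaptic genes. The share over all probe sets was not counted, so a lack of overlap is not a result by itself. Members of the 31 gene lists ran from differences of -6.60 to 7.45, and neuronal lists and immediate early genes stood at the ends of the plot of list members.

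**Figure D1:**
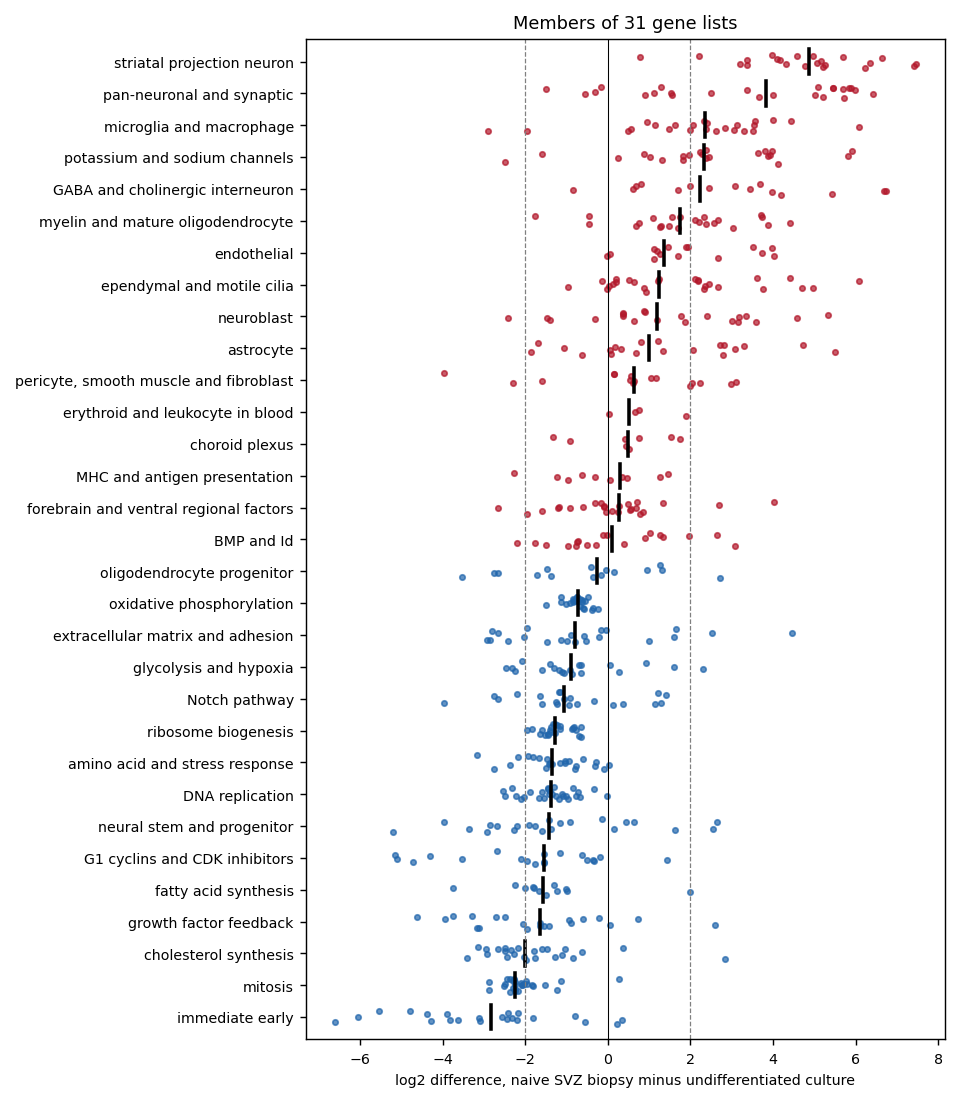
Log2 differences (naive SVZ biopsy minus undifferentiated culture, x axis) of the tested members of 31 gene lists (y axis); each point is 1 gene, the black bar is the median over all members on the array, tested or not, and the dashed lines mark a 4-fold difference. Striatal neuron genes lie furthest to the right with a median of 4.87 and immediate early genes furthest to the left with a median of -2.84.

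Among the 15 genes with the highest differences, Drd2 and Bcl11b are members of the striatal neuron list and the others are in none of the gene lists. Epha6, an Eph receptor tyrosine kinase, had signals of 26995, 28353 and 24692 in biopsies, against 25.7, 30.2 and 29.1 in cultures, a difference of 9.23 ± 0.10 (adjusted p = 1.47e-14), at least 533-fold higher. Cacng3, an auxiliary subunit of AMPA glutamate receptors, had 14352, 11186 and 13088 in biopsies, against 17.1, 19.2 and 17.8 in cultures, at least 256-fold higher. The serotonin receptor gene Htr2c had 16927, 12603 and 15096 in biopsies, against 38.3, 65.1 and 57.8 in cultures, a difference of 7.75 ± 0.15. The 15 were picked among genes that passed the 1.2-fold rule and whose biopsies and cultures did not overlap. That every biopsy lay above every culture therefore follows from the choice. The other genes among the 15 with the highest differences were Drd2, Bcl11b, Cacng2, Pcp4l1, Slc5a7, Phyhip, Mctp1, Lgi1, St8sia3, Cpne5, Gnal and Camkv. Among them Gnal encodes the G protein subunit that couples dopamine and adenosine receptors to adenylyl cyclase in the striatum, Slc5a7 the choline transporter of cholinergic neurons, and Lgi1 a secreted synaptic protein.

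At the other end, Igfbp2, which binds insulin-like growth factors, had signals of 52.4, 68.6 and 73.8 in biopsies, against 20109, 16710 and 18914 in cultures, a difference of -7.85 ± 0.12 (adjusted p = 9.13e-14). Hs3st3b1, a heparan sulfate sulfotransferase, had 34.9, 47.4 and 35.9 in biopsies, against 8826, 11621 and 9961 in cultures, at least 201-fold lower. Il20rb, a cytokine receptor subunit, had 55.0, 79.0 and 72.5 in biopsies, against 6404, 6790.3 and 6472 in cultures, a difference of -6.29 ± 0.12. The 15 lowest were picked in the same way, so every biopsy was below every culture by that choice. The other genes among the 15 with the lowest differences were Atf3, Ccn1, Fos, Mmp2, Nwd2, Fosb, Nes, Cdkn1a, Adam12, Cdkn2a, Chst7 and Igfbp3; they include secreted or matrix-modifying proteins (Ccn1, Mmp2, Igfbp3, and the metalloprotease Adam12) and the genes of growth and injury responses taken up below. Mmp2 had 51.7, 54.1 and 50.5 in biopsies, against 3796, 3835 and 3508 in cultures, a difference of -5.77 ± 0.10, and Igfbp3 had 81.0, 60.9 and 55.0 in biopsies, against 2518, 2325 and 2947 in cultures, a difference of -5.01 ± 0.13.

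Genes of striatal projection neurons, the inhibitory output neurons of the region beside the SVZ, were higher in biopsies almost throughout the list. Of 22 listed genes on the array, all of which passed the signal filter, 21 were at least 4-fold higher in biopsies and 0 lower, beside 7.17% and 3.22% of all tested probe sets, with a median difference of 4.87 beside 0.14 over all 27342 probe sets. The summed signal of the list was 60370 to 66133 in biopsies, against 1928 to 1995 in cultures. Drd2, the dopamine D2 receptor, had 4718, 5155 and 4688 in biopsies, against 9.60, 9.83 and 16.5 in cultures, at least 97-fold higher. Bcl11b, a transcription factor of these neurons, had 15763, 14413 and 14990 in biopsies, against 69.2, 69.7 and 76.7 in cultures, a difference of 7.42 ± 0.10. Rgs9, which shortens dopamine receptor signalling, differed by 6.65 ± 0.11. The smallest difference of the list was that of Meis2, a factor of the ventral forebrain, with 1301, 1107 and 1208 in biopsies, against 698, 741 and 663 in cultures (0.77 ± 0.11). In whole tissue, fewer cells of a type and less RNA per cell cannot be told apart.

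General neuronal and synaptic genes followed with 15 of 24 at least 4-fold higher and 0 lower (median 3.82). Snap25, part of the machinery that fuses synaptic vesicles, had 4963, 3894 and 4543 in biopsies, against 42.6, 35.0 and 30.8 in cultures, at least 88.9-fold higher. Grin1, the shared subunit of NMDA receptors, was at least 75.3-fold higher and Camk2a, the kinase of excitatory synapses, differed by 5.83 ± 0.12. Slc17a7, the vesicular glutamate transporter of cortical neurons, differed by only -0.16 ± 0.11 (adjusted p = 0.186), with 110.1, 120.1 and 95.5 in biopsies and 121, 118 and 130.0 in cultures. Nrgn, a calmodulin-binding protein of the postsynapse, ran against the list with 15057, 12692 and 14150 in biopsies and 42164, 40126 and 35299 in cultures, a difference of -1.49 ± 0.11 (adjusted p = 6.02e-08). Nrgn carried most of the list's summed signal in cultures, which was 43974 to 51051, against 59992 to 69196 in biopsies.

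Of 18 GABA and cholinergic neuron genes on the array, 15 passed the filter and 9 were at least 4-fold higher in biopsies. The GABA-synthesising enzyme Gad2 had 3864, 3762 and 3682 in biopsies, against 17.9, 24.3 and 16.6 in cultures, at least 75.4-fold higher, while Gad1 had 2448, 2085 and 2243 in biopsies, against 111, 131 and 84.4 in cultures (4.20 ± 0.14). Both groups of arrays were apart for either gene, but the cultures read above 50 for Gad1 only. Slc32a1, the vesicular GABA transporter, was at least 96.9-fold higher and Npy, a neuropeptide of striatal interneurons, differed by 3.97 ± 0.13. Lhx6, a factor of interneurons from the medial ganglionic eminence, had the smallest difference with 77.7, 82.7 and 80.4 in biopsies, against 42.0, 50.2 and 49.9 in cultures (0.61 ± 0.10). Among potassium and sodium channel genes, 13 of 22 were at least 4-fold higher in biopsies and 1 was lower. Scn1a, a neuronal sodium channel, had 1362, 1266 and 1200.5 in biopsies, against 54.3, 52.1 and 68.0 in cultures (4.13 ± 0.11). The exception was Kcnj16, an inward rectifier, with 164, 145 and 179 in biopsies, against 989.8, 1271 and 774 in cultures (-2.50 ± 0.16).

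**Figure D2:**
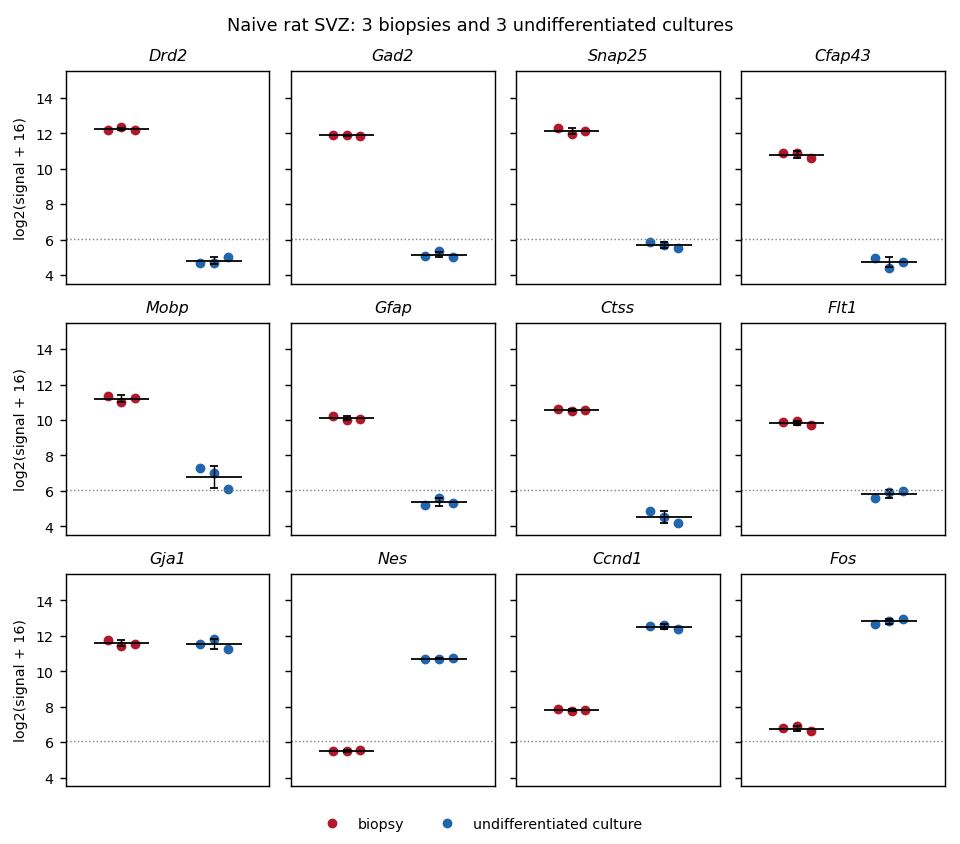
Signals of 12 genes as log2(signal + 16) (y axis) in 3 naive SVZ biopsies (red, left) and 3 undifferentiated naive SVZ cultures (blue, right); points are arrays, black bars the mean and whiskers 1 SD, and the dotted line a signal of 50. Gja1 overlaps between the groups, with the 8 genes Drd2, Gad2, Snap25, Cfap43, Mobp, Gfap, Ctss and Flt1 higher in biopsies and Nes, Ccnd1 and Fos higher in cultures.

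Neuroblast genes were divided. Of 21 tested, 8 were at least 4-fold higher in biopsies and 1 was lower (median 1.18). Dlx5, a homeobox factor of GABAergic neurons and their precursors, had 548, 605 and 531 in biopsies, against 11.1, 6.46 and 7.44 in cultures, at least 11.2-fold higher, and its neighbour in the family, Dlx6, had 1228, 1113 and 1166 in biopsies, against 118, 113 and 116 in cultures (3.17 ± 0.10). Tubb3, the tubulin of young and mature neurons, differed by 3.34 ± 0.14. Dcx, the microtubule protein that labels migrating neuroblasts, had 368, 435 and 371 in biopsies, against 470.2, 546 and 455 in cultures, a difference of -0.31 ± 0.11 (adjusted p = 0.0223) with a 95% confidence interval of -0.56 to -0.07; with quantile normalization it was 0.03, and without biopsy replicate 1, biopsy replicate 3 or culture replicate 2 it missed the threshold at -0.27, -0.28 and -0.24. Sox4, a factor of early neuronal commitment, was lower in biopsies with 178, 191 and 176, against 1058, 1019.9 and 1059.9 in cultures (-2.43 ± 0.10), and the related Sox11 was lower (a difference of -1.40). Several members of the list with high differences, such as Tubb3, Celf4 and Nrxn3, are also expressed by mature neurons.

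Ependymal cells carry motile cilia, and part of the ciliary gene list was higher in biopsies. Of 28 genes on the array, 26 passed the filter, 13 were at least 4-fold higher in biopsies and 0 lower; 6 did not pass even the 1.2-fold rule. Cfap43, a protein of the ciliary axoneme, had 1906, 1909.9 and 1512 in biopsies, against 15.6, 5.29 and 11.0 in cultures, at least 35.3-fold higher. Ak7, an adenylate kinase of motile cilia, had 2638, 2174 and 2014 in biopsies, against 51.1, 56.4 and 64.3 in cultures (4.96 ± 0.12). Hydin, of the central pair of microtubules, had 1924, 2365 and 1421 in biopsies, against 129, 96.3 and 147 in cultures (3.76 ± 0.18), read from 1 of its 40 probe sets. Replicate 3 was the lowest biopsy for all 3 genes, and still lay above every culture. Dnah5, an outer dynein arm heavy chain, had 293, 298 and 241 in biopsies and 255, 267 and 322 in cultures (-0.02 ± 0.12, adjusted p = 0.9). Of 14 choroid plexus genes, 8 passed the filter and 0 were at least 4-fold different; by the 1.2-fold rule 6 were higher in biopsies and 2 lower. Enpp2, which makes lysophosphatidic acid and which oligodendrocytes also express, had 1183, 993 and 1049.6 in biopsies, against 321, 286 and 323 in cultures (1.74 ± 0.11). Folr1, a folate receptor, was at least 2.67-fold higher in biopsies (1.52 ± 0.10 as fitted). Ttr, the thyroxine carrier made by that epithelium, had 78.8, 114 and 53.0 in biopsies, against 44.4, 50.9 and 57.0 in cultures.

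Of 23 myelin and mature oligodendrocyte genes, 11 were at least 4-fold higher in biopsies and 0 lower, and by the 1.2-fold rule 20 were higher and 3 lower. Mobp, a structural myelin protein, had 2605, 2038 and 2433 in biopsies, against 139.7, 114 and 51.9 in cultures (4.41 ± 0.23), and Mbp, myelin basic protein, had 2901, 2138 and 2569.6 in biopsies, against 491, 323 and 158 in cultures (3.03 ± 0.28). Culture replicate 3 was the lowest for both, and Opalin, a membrane protein of mature oligodendrocytes, was at least 10.6-fold higher in biopsies with 36.0, 41.0 and 8.49 in cultures. Cnp, an enzyme of oligodendrocytes that appears earlier in the lineage, was lower in biopsies, at 1236, 1067 and 1122, against 1707, 1513 and 1498 in cultures (-0.46 ± 0.11), a difference that was 0.11 with quantile normalization.

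Of 15 oligodendrocyte progenitor genes tested, 1 was at least 4-fold higher in biopsies and 3 were lower. Over all tested probe sets the shares were 7.17% and 3.22%, so the higher count was near its share. By the 1.2-fold rule 4 were higher, 8 lower and 3 did not pass, not far from the 33.2% and 43.7% of all tested probe sets. The median over the 16 on the array was -0.27. Olig1, a factor that specifies the lineage, had 543, 573 and 538 in biopsies, against 6560, 6262 and 6692 in cultures (-3.52 ± 0.10), and Olig2, its partner, had 185, 126 and 133 in biopsies, against 959, 1097 and 949 in cultures (-2.65 ± 0.14). Ptprz1, a receptor phosphatase of progenitors, differed by -2.76 ± 0.10. Pdgfra, the growth factor receptor that marks these progenitors, did not pass the test (0.15 ± 0.12, adjusted p = 0.275) with 348, 340 and 317 in biopsies and 315, 344 and 249 in cultures. Tnr, a matrix protein of perineuronal nets, was the member at least 4-fold higher, with 326, 364 and 327 in biopsies, against 33.8, 37.2 and 43.6 in cultures, a bound of at least 6.77-fold, and Sox10, Neu4 and Gpr17 were the other members higher in biopsies (1.32 ± 0.18, 1.27 ± 0.10 and 0.94 ± 0.10).

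Of 20 astrocyte genes tested, 8 were at least 4-fold higher in biopsies, 0 were lower by that rule, and 4 were lower by the 1.2-fold rule. Aqp4, the water channel of astrocyte endfeet, had 3511, 2809 and 3301 in biopsies, against 50.4, 55.2 and 61.4 in cultures (5.49 ± 0.12). Gfap, the intermediate filament of mature astrocytes and of SVZ stem cells, had 1170.4, 1001 and 1066 in biopsies, against 20.3, 32.5 and 24.2 in cultures, at least 21.5-fold higher. Gja1, the gap junction protein connexin 43, had 3432, 2733 and 3025 in biopsies and 2914, 3606 and 2414 in cultures, a difference of 0.05 ± 0.14 (adjusted p = 0.743), or 0.58 with quantile normalization. Slc1a3, the glutamate transporter shared by astrocytes and radial glia, was lower in biopsies (a difference of -1.06), and so was Acsbg1, a fatty acid activating enzyme (-1.87).

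Most microglial genes stayed at or below a signal of 50 in cultures. Of 26 microglia and macrophage genes on the array, 21 did not exceed 50 on any culture, and 15 of 24 tested were at least 4-fold higher in biopsies; with members at the floor set to their bounds, 9 of the 15 reached that fold and the median difference was 1.46, against 2.35 as fitted. Ctss, a lysosomal protease of microglia, had 1583, 1451 and 1520.4 in biopsies, against 13.1, 6.53 and 2.10 in cultures, at least 30.3-fold higher. Csf1r, the receptor on which microglia depend, had 493, 484 and 432 in biopsies, against 9.68, 3.72 and 6.08 in cultures, at least 9.38-fold higher. Olfml3, listed with microglia but secreted by other cells as well, was lower in biopsies with 90.0, 86.5 and 85.9, against 741, 746 and 786 in cultures (-2.90 ± 0.10), and so was the factor Sall1, which neural progenitors also express (-1.95).

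Of 18 endothelial genes on the array, 11 did not exceed 50 on any culture, and 5 of 15 tested were at least 4-fold higher in biopsies (8 with a pseudocount of 1). Flt1, a receptor for VEGF, had 925, 973 and 816 in biopsies, against 31.7, 44.9 and 47.5 in cultures, at least 18-fold higher, and the angiopoietin receptor gene Tek was at least 8.18-fold higher. Among pericyte, smooth muscle and fibroblast genes, 4 of 16 tested were at least 4-fold higher in biopsies and 2 lower: Pdgfrb, the receptor that marks pericytes, was at least 4.55-fold higher, while the actin-binding protein gene Tagln had 108, 119 and 114 in biopsies, against 780.1, 669 and 459 in cultures (-2.30 ± 0.16). Blood markers were low in both groups, with 4 of 13 above the filter and a summed signal of 954 to 1096 in biopsies, against 421 to 543 in cultures; Hbb, a haemoglobin chain, had 432, 379.7 and 512 in biopsies, against 77.6, 134 and 118 in cultures (1.88 ± 0.16).

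Neural stem and progenitor genes were mostly lower in biopsies. Of 22 tested, 8 were at least 4-fold lower and 2 at least 4-fold higher in biopsies. Over the 23 on the array the median was -1.42, and the summed signal was 7359 to 8104 in biopsies, against 32681 to 35357 in cultures. Nes, the intermediate filament nestin of neural stem cells, had 28.4, 28.5 and 31.6 in biopsies, against 1646, 1652 and 1716 in cultures, at least 33.4-fold lower. Egfr, the EGF receptor of activated stem and transit-amplifying cells, had 146, 169 and 136 in biopsies, against 1608, 1706 and 1721 in cultures (-3.35 ± 0.11). Vim, the filament vimentin of immature glia, differed by -2.84 ± 0.10, and Sox2, which maintains neural progenitors, was lower in biopsies (a difference of -2.28).

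Of the neural stem and progenitor genes, 5 passed the 1.2-fold rule as higher in biopsies (Prom1, Id3, Rarres2, Insm1 and Msi1), and Prom1 and Id3 were the 2 that reached 4-fold. Prom1, whose protein CD133 lies on membrane protrusions of stem and ependymal cells, had 287, 245 and 247 in biopsies, against 23.5, 30.7 and 41.7 in cultures, at least 5.18-fold higher. Id3, which holds back differentiation downstream of BMP signals, had 459, 397 and 412 in biopsies, against 78.3, 35.8 and 56.0 in cultures (2.63 ± 0.17). Pax6, a factor of radial glia and of dopaminergic neuroblasts, had 177, 209 and 183 in biopsies and 196, 228 and 206 in cultures, with a 95% confidence interval of the difference of -0.37 to 0.10.

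Of 25 tested factors that mark forebrain position, 2 were at least 4-fold higher in biopsies and 1 was lower, shares near the 7.17% and 3.22% of all tested probe sets, and 7 did not pass the 1.2-fold rule. The 95% confidence intervals of the differences of Six3, Emx1, Gsx1, Nkx2-1, Lmx1a, Nr2f2 and Dmrta2 lay within 1.5-fold; of these, Dmrta2 passed the 1.2-fold rule (-0.32 ± 0.12, adjusted p = 0.0264), and all 7 had signals of at most 248 in either group. With quantile normalization or scaling to the 75th percentile, Emx1, Gsx1, Nkx2-1, Lmx1a and Nr2f2 also passed it, with differences between -0.48 and 0.47. Isl1, a factor of striatal and cholinergic neurons, had 523, 442 and 453 in biopsies, against 7.98, 16.4 and 19.1 in cultures, at least 9.43-fold higher, and Ebf1, of striatonigral neurons, was at least 4.29-fold higher. Lower in biopsies were Meis1 at 171, 165 and 169.6, against 1179, 1214 and 1076 in cultures (-2.67 ± 0.10), and the cortical patterning genes Nr2f1 (-1.96 ± 0.13) and Emx2 (-1.60 ± 0.14).

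Genes of the dividing cell were lower in biopsies. Of 28 mitosis genes, 20 were at least 4-fold lower and 27 passed the 1.2-fold rule as lower (median -2.24); of 28 DNA replication genes, 6 were at least 4-fold lower and 27 passed the 1.2-fold rule (median -1.37). Over all tested probe sets 3.22% were at least 4-fold lower and 43.7% passed the 1.2-fold rule as lower. Ccnb2, a B-type cyclin of mitosis, had 67.2, 81.5 and 58.2 in biopsies, against 550.5, 529.9 and 742 in cultures (-2.87 ± 0.14). Mki67, the source of the Ki-67 proliferation antigen, had 84.5, 122 and 84.3 in biopsies, against 545, 507 and 848 in cultures (-2.50 ± 0.18). Cdk1, the kinase that drives entry into mitosis, differed by -2.29 ± 0.17. Culture replicate 3 was the highest for Ccnb2 and Mki67, and no culture overlapped a biopsy. Of the replication genes, Mcm5, part of the helicase that opens the DNA, had 77.4, 58.4 and 74.9 in biopsies, against 487, 368 and 563 in cultures (-2.49 ± 0.15), and Rrm2, which makes deoxynucleotides, differed by -2.54 ± 0.14. Aurkb, the kinase of the chromosomal passenger complex, was the mitosis gene that did not pass the test, with 251, 282 and 222 in biopsies and 195, 178 and 246 in cultures (0.27 ± 0.13, adjusted p = 0.0733); it was 0.49 (adjusted p = 0.00492) with scaling to the 75th percentile, and passed the test without biopsy replicate 3 (0.35) or culture replicate 3 (0.39).

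The promoters of mitosis genes are known for CCAAT boxes, bound by NF-Y, and for a cell cycle homology region (CHR, TTTGAA), bound by DREAM and MuvB complexes, and 3 of them are shown because these genes moved together. The sequences are from RefSeq (GRCr8), the 150 bases before the annotated start on the gene's strand, with CCAAT and TTTGAA on either strand in capitals.
Ccnb2, chr8:79981659-79981808, minus strand: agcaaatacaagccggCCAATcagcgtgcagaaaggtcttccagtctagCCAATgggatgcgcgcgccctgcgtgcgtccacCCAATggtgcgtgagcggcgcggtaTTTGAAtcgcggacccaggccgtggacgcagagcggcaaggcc
Cdk1, chr20:19265143-19265292, plus strand: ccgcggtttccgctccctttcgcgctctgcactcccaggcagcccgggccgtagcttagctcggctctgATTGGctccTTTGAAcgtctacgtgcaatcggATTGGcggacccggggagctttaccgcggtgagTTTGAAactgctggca
Mki67, chr1:199952594-199952743, minus strand: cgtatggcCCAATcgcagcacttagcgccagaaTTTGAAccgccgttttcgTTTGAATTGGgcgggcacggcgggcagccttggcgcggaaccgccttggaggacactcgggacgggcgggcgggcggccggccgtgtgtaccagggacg
In the 300 bases around the start (250 before it and 50 after), CCAAT on either strand was present in 19 of the 24 mitosis genes with a promoter in the table (79.2%), against 37.7% of 27457 rat promoters, and TTTGAA in 18 of 24 (75%), against 18.1%. In Mki67 the second TTTGAA and a CCAAT box on the other strand overlap in a single run of capitals. These matches describe the letters of the windows and not sites in use.

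In the G1 list, 7 of 19 genes were at least 4-fold lower in biopsies, and they included cyclins and inhibitors of cyclin-dependent kinases alike. Ccnd1, the D-type cyclin that carries mitogen signals into the cycle, had 221, 201 and 209.9 in biopsies, against 6102, 6377 and 5275 in cultures (-4.71 ± 0.11). Cdkn1a, the inhibitor p21, had 54.2, 50.0 and 49.8 in biopsies, against 2327, 2778 and 2136 in cultures (-5.17 ± 0.12, adjusted p = 5.46e-13). Cdkn2a, the locus of p16 and p19ARF, had 2.81, 3.97 and 8.42 in biopsies, against 794, 668 and 655 in cultures, at least 14.1-fold lower, and its neighbour Cdkn2b was at least 22.7-fold lower. Myc was at least 10.4-fold lower in biopsies, with 459.9, 509.6 and 596 in cultures, and Mycn was higher in biopsies (a difference of 1.44).

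Immediate early genes, which cells switch on within minutes of a growth factor, calcium or stress signal, were the lowest list in biopsies. Of 22 tested, 17 were at least 4-fold lower and 0 higher, beside 3.22% and 7.17% of all tested probe sets, with a median of -2.84. Fos had 94.3, 102 and 83.0 in biopsies, against 6488, 7392 and 7888 in cultures (-6.06 ± 0.11), and its AP-1 partner Jun had 195, 195 and 184 in biopsies, against 5254, 6071 and 5923 in cultures (-4.80 ± 0.10). Atf3, a stress-induced factor, had 16.2, 20.9 and 13.4 in biopsies, against 3164, 3009 and 3313 in cultures, at least 63.2-fold lower. Egr1, a zinc finger factor of the same response, had 490.4, 535 and 466 in biopsies, against 2172, 2704 and 3359.6 in cultures (-2.41 ± 0.14), and Ier2 had 67.9, 76.8 and 77.5 in biopsies, against 1061, 1108 and 1651 in cultures (-3.81 ± 0.15). For each of these the 3 biopsies lay below the 3 cultures, and the groups did not overlap for 20 of the 22 genes of the list. Arc, which acts at synapses, was lower in biopsies (a difference of -2.19), and Egr4 had 132, 151 and 126 in biopsies and 93.7, 145 and 109 in cultures (0.22 ± 0.14, adjusted p = 0.162). Harvest and handling times of tissue and cultures were not given in the labels.

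Promoters of these genes are known for the cyclic AMP response element (CRE, TGACGTCA), bound by CREB, and the CArG box, bound by serum response factor, and 1 promoter of each kind is shown. The sequences are the 200 bases before the start in RefSeq (GRCr8), with matches on either strand in capitals.
Egr1, chr18:26736878-26737077, plus strand, CArG boxes: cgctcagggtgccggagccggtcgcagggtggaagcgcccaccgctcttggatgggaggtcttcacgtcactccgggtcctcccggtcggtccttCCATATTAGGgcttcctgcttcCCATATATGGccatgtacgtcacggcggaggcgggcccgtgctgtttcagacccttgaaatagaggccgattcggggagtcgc
Ier2, chr19:40399173-40399372, plus strand, CRE: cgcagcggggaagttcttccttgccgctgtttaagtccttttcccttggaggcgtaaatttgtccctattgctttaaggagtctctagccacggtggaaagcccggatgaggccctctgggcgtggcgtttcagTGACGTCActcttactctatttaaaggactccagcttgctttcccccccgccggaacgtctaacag
In the 300-base windows, the CRE was present in 4 of the 14 immediate early genes with a promoter in the table (28.6%), namely Btg2, Dusp1, Ier2 and Jund, against 1.91% of all rat promoters. The CArG box was present in 2 of 14 (14.3%), Egr1 and Egr2, against 1.64%.

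Feedback genes of growth factor signalling were mostly lower in biopsies. Of 21 tested, 9 were at least 4-fold lower and 1 was higher, and by the 1.2-fold rule 17 were lower and 2 higher. Over all tested probe sets 43.7% were lower and 33.2% higher by the 1.2-fold rule. The median over the 22 on the array was -1.65. Etv4, an ETS factor induced through FGF and ERK, had 40.8, 43.0 and 46.4 in biopsies, against 1471, 1312 and 1547 in cultures, at least 28.8-fold lower. Dusp6, the phosphatase that switches off ERK, had 129.8, 96.4 and 119 in biopsies, against 1649, 2318 and 2091 in cultures (-3.95 ± 0.14), and the receptor kinase inhibitors Spry1 and Spry4 differed by -3.75 ± 0.11 and -3.29 ± 0.12. Tgfa, a ligand of the EGF receptor, was the member at least 4-fold higher, with 267, 239.7 and 274 in biopsies, against 32.0, 32.2 and 25.4 in cultures, a bound of at least 5.2-fold. Spred2, another inhibitor of the pathway, did not pass the test (0.06 ± 0.12, adjusted p = 0.673).

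Lipid synthesis genes were mostly lower in biopsies. Of 24 cholesterol synthesis genes, 12 were at least 4-fold lower, 1 was higher and 22 passed the 1.2-fold rule as lower (median -2.004), beside 43.7% of all tested probe sets for the last. Idi1, which isomerises the isoprenoid building block, had 201, 129.6 and 161 in biopsies, against 1707, 2150.5 and 1754 in cultures (-3.40 ± 0.15). Insig1, the sterol sensor that holds back SREBP, had 429, 450.0 and 450.2 in biopsies, against 3748, 4213 and 4144 in cultures (-3.14 ± 0.10). Fdps, the enzyme that makes farnesyl diphosphate, ran against its neighbours in the pathway with 2364, 2183 and 2189.7 in biopsies, against 309, 281 and 311 in cultures (2.84 ± 0.10, adjusted p = 3.22e-11). Of 12 fatty acid genes, 3 were at least 4-fold lower (1 with quantile normalization), led by the desaturase Scd with 91.1, 93.3 and 83.0 in biopsies, against 1325, 1479 and 1396 in cultures (-3.75 ± 0.10); Thrsp, a lipogenic protein, was at least 3.35-fold higher in biopsies. A sterol regulatory element (TCACNCCAC) was found in 0 of the 16 cholesterol gene promoters in the table, against 1.13% of all.

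Of 23 ribosome biogenesis genes, 23 passed the 1.2-fold rule as lower in biopsies, beside 43.7% of all tested probe sets, with a median of -1.28, and 0 reached 4-fold. Pes1, needed to mature the large ribosomal subunit, had 417, 360.4 and 367 in biopsies, against 1559, 1626 and 1429.7 in cultures (-1.97 ± 0.11). Of 22 oxidative phosphorylation genes, 21 were lower (median -0.72), 0 by 4-fold. Among 20 glycolysis and hypoxia genes, 4 were at least 4-fold lower (1 with quantile normalization) and 1 was higher. Ldha, which makes lactate, had 1129, 854 and 1086 in biopsies, against 6082, 5025 and 6135 in cultures (-2.48 ± 0.13), and Vegfa had 312, 327 and 289 in biopsies, against 1480.1, 1080.5 and 2216 in cultures, whose replicates spread widely (-2.24 ± 0.20). Ndrg1, a hypoxia-responsive gene that oligodendrocytes also express, was higher in biopsies (2.31 ± 0.19). Among 23 amino acid and stress genes, 4 were at least 4-fold lower, among them the mitochondrial folate enzyme gene Mthfd2 (-3.18 ± 0.13) and Atf4, the factor that drives the response (-2.75 ± 0.11).

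In the Notch pathway, which keeps neural progenitors from differentiating, 4 of 21 genes were at least 4-fold lower in biopsies and 0 higher. The ligand gene Dll1 differed by -1.63 ± 0.13, the receptor gene Notch2 had 163, 219 and 172 in biopsies, against 1132, 1268 and 1369 in cultures (-2.67 ± 0.13), and the target Hes1 had 117, 122 and 109 in biopsies, against 2139, 2189.5 and 1809.7 in cultures (-3.96 ± 0.11). Nrarp, a feedback inhibitor, differed by -2.77 ± 0.11. In the BMP list 2 of 19 genes were at least 4-fold higher in biopsies and 1 was lower (0 with quantile normalization or scaling to the 75th percentile), shares near the 7.17% and 3.22% of all tested probe sets. The ligand Bmp6 had 242, 265 and 218 in biopsies, against 10.7, 16.02 and 16.7 in cultures, at least 4.82-fold higher, the effector Smad5 was lower (-2.19 ± 0.11), and the targets divided, with Id4 higher (1.96 ± 0.13) and Id1 lower (-1.76 ± 0.14).

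Of 22 matrix and adhesion genes, 6 were at least 4-fold lower in biopsies and 2 higher. The laminin chain gene Lamc1 had 133, 161 and 123 in biopsies, against 1035, 1142 and 1126 in cultures (-2.86 ± 0.11), and the integrin gene Itgav differed by -2.65 ± 0.10. Hapln1, the link protein of perineuronal nets, had 427, 342 and 401 in biopsies, against 1.43, 1.49 and 4.90 in cultures, at least 7.77-fold higher, and Reln, a guidance protein of neuronal layers, was at least 3.98-fold higher, so that of these 2 genes 1 reached 4-fold by its bound. Of 10 antigen presentation genes tested, 1 was at least 4-fold lower in biopsies and 0 higher. By the 1.2-fold rule 5 were lower and 4 higher, shares near the 43.7% and 33.2% of all tested probe sets. The median of 0.29 is over the 14 on the array, 4 of them not tested. Tap1, the peptide transporter, was lower in biopsies with 74.2, 59.3 and 65.04, against 415, 369.6 and 349.9 in cultures (-2.26 ± 0.11), and B2m, the light chain of MHC class I, with 1988, 1729.6 and 1992, against 4388, 4969 and 4118 in cultures (-1.23 ± 0.11). The MHC class II genes Cd74 and RT1-DMb were higher in biopsies (1.45 ± 0.12 and 1.26 ± 0.13).

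The same contrast in rats with EAE used 6 other arrays. There, 15330 of 19225 probe sets (79.7%) passed the 1.2-fold rule and 2109 (11%) the 4-fold rule, 1470 higher (7.65%) and 639 lower (3.32%) in biopsies. Of the 2005 probe sets of the naive contrast, 2001 were tested in EAE; all 2001 differed in the same direction past the 1.2-fold rule, and 1913 passed the 4-fold rule, which is 95.4% of the naive and 90.7% of the EAE list. Drd2 differed by 7.43 ± 0.12 in EAE, Cfap43 by 6.44 ± 0.20, Fos by -6.15 ± 0.18, Igfbp2 by -8.07 ± 0.12 and Fdps by 2.76 ± 0.13, beside 7.45 ± 0.12, 6.08 ± 0.15, -6.06 ± 0.11, -7.85 ± 0.12 and 2.84 ± 0.10 in naive rats. Drd2 and Cfap43 read below 50 on every undifferentiated culture, so their values here are as fitted and not bounds.

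**Figure D3:**
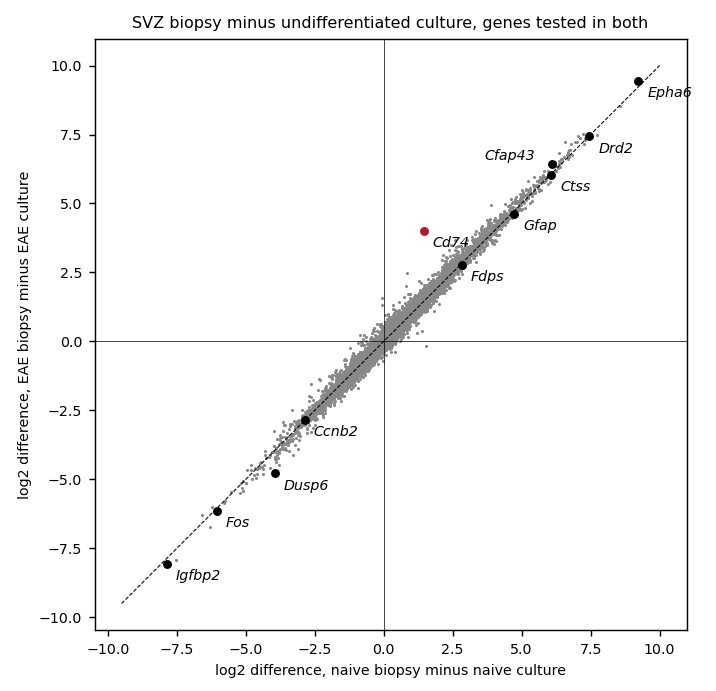
Log2 differences between SVZ biopsies and undifferentiated cultures in naive rats (x axis) and in rats with EAE (y axis), 1 point per gene tested in both, with the dashed line where they are equal and 11 genes labelled. Most genes lie along the line, and Cd74 (red) lies above it, at 1.45 in naive rats and 4.02 in EAE.

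A fit of both contrasts together tested whether the tissue minus culture difference itself differed between naive and EAE. Of 20381 probe sets, 4 (0.0196%) passed the 1.2-fold rule, all with a smaller difference in naive rats, and 855 had an unadjusted p under 0.05. Cd74, the invariant chain of MHC class II, had 82.0, 94.9 and 83.4 in naive biopsies, against 19.1, 27.5 and 18.4 in naive cultures, and 436, 1068 and 311 in EAE biopsies, against 14.9, 14.0 and 24.7 in EAE cultures; the difference of differences was -2.56 ± 0.40 (adjusted p = 0.0443). RT1-Da, an MHC class II chain, had 48.0, 42.6 and 38.6 in naive biopsies, against 10.2, 12.2 and 13.6 in naive cultures, and 288, 536 and 163 in EAE biopsies, against 5.48, 8.10 and 7.94 in EAE cultures (-2.67 ± 0.36, adjusted p = 0.0119). It read below 50 on every naive array and EAE culture, so it was not tested in the naive contrast. For Cd74 every culture of both kinds read below 50, so both estimates rest partly on signals under that limit. LOC686547 and a probe set with no symbol were the other 2. The count was 1 to 5 under the other settings tried and 1 to 9 with 1 array left out. Cd74 and RT1-Da were the 2 that also reached 4-fold. That 4-fold count was 0 with quantile normalization or scaling to the 75th percentile. It was also 0 without naive culture replicate 2 or without EAE biopsy replicate 1. With all 18 groups in 1 fit the estimates were the same, but neither Cd74 nor RT1-Da passed. For Cd74, RT1-Da and LOC686547 every EAE biopsy lay above every naive biopsy. These genes were picked on the same arrays, so that separation is not a separate result.

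Naive SVZ cultures differentiated for 5 days gave a second reference for the same 3 biopsies, so the 2 contrasts share those arrays and their values are set side by side only. Replicate 3 of the differentiated cultures stood apart: its lowest correlation with the others was 0.9545, and it read Cfap43, Mobp and Ctss differently, with 899, 968 and 15.4, 179, 116 and 2294 and 16.1, 20.9 and 529 over replicates 1 to 3. Of 19239 probe sets, 12164 (63.2%) passed the 1.2-fold rule and 1450 (7.54%) the 4-fold rule, 5.48% as higher and 2.05% as lower in biopsies, and without that replicate 14065 and 1658 did. Of 22 striatal neuron genes, 20 were at least 4-fold higher in biopsies than in differentiated cultures with all replicates, and 20 without replicate 3. Myelin genes gave 4 of 23 at least 4-fold higher with all replicates and 10 without replicate 3, and microglia genes gave 5 and 13.

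Mitosis genes were at least 4-fold lower in biopsies in 0 of 26 tested cases beside differentiated cultures with all replicates, and in 4 without replicate 3. Their median difference was still -1.19 with all replicates and -1.76 without replicate 3. The summed signal of the list was 7784, 9533 and 2174 in differentiated replicates 1 to 3, against 2222, 2660 and 2124 in biopsies. Immediate early genes divided, with 3 of 21 tested at least 4-fold higher and 3 lower. Fos had 94.3, 102 and 83.0 in biopsies, against 363, 354 and 359 in differentiated cultures. Fosb, another AP-1 gene, had 77.3, 82.2 and 77.2 in biopsies, against 13.4, 20.4 and 23.4 in differentiated cultures (1.45 ± 0.13, adjusted p = 8.06e-05), with every biopsy above every culture. Those cultures read below 50 throughout, so the value is as fitted and not a bound. Etv4 had 40.8, 43.0 and 46.4 in biopsies, against 69.5, 80.6 and 113 in differentiated cultures. Vegfa had 312, 327 and 289 in biopsies, against 168, 146 and 166 in differentiated cultures (0.89 ± 0.11, adjusted p = 2.99e-04), a difference of the opposite sign to that with undifferentiated cultures.

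The astrocyte genes Gfap and Aqp4 and the BMP genes Id3 and Bmp6, all higher in biopsies than in undifferentiated cultures, read lower in biopsies than in differentiated ones. Gfap had 1170.4, 1001 and 1066 in biopsies, against 4248, 4259 and 1409 in differentiated cultures, and Aqp4 had 3511, 2809 and 3301 in biopsies, against 8632, 8195 and 4656 in differentiated cultures. Id3 had 459, 397 and 412 in biopsies, against 3350.1, 3046 and 1989 in differentiated cultures (-2.65 ± 0.20, adjusted p = 3.32e-05). Bmp6 had 242, 265 and 218 in biopsies, against 2060.3, 1648 and 811 in differentiated cultures (-2.47 ± 0.32, adjusted p = 4.41e-04). For these 4 genes every biopsy lay below every differentiated culture. Cdkn1a, Cdkn2a and Vim stayed lower in biopsies, with differences of -4.84 ± 0.12, -4.57 ± 0.14 and -3.25 ± 0.11 to differentiated cultures, which read 2132, 1699 and 1948, 479.9, 431 and 542 and 10790, 9307 and 10023. Nrgn had 15057, 12692 and 14150 in biopsies, against 187, 178 and 2184 in differentiated cultures. Fdps had 2364, 2183 and 2189.7 in biopsies, against 333, 298 and 342 in differentiated cultures, and so was higher in biopsies than in either kind of culture.

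**Figure D4:**
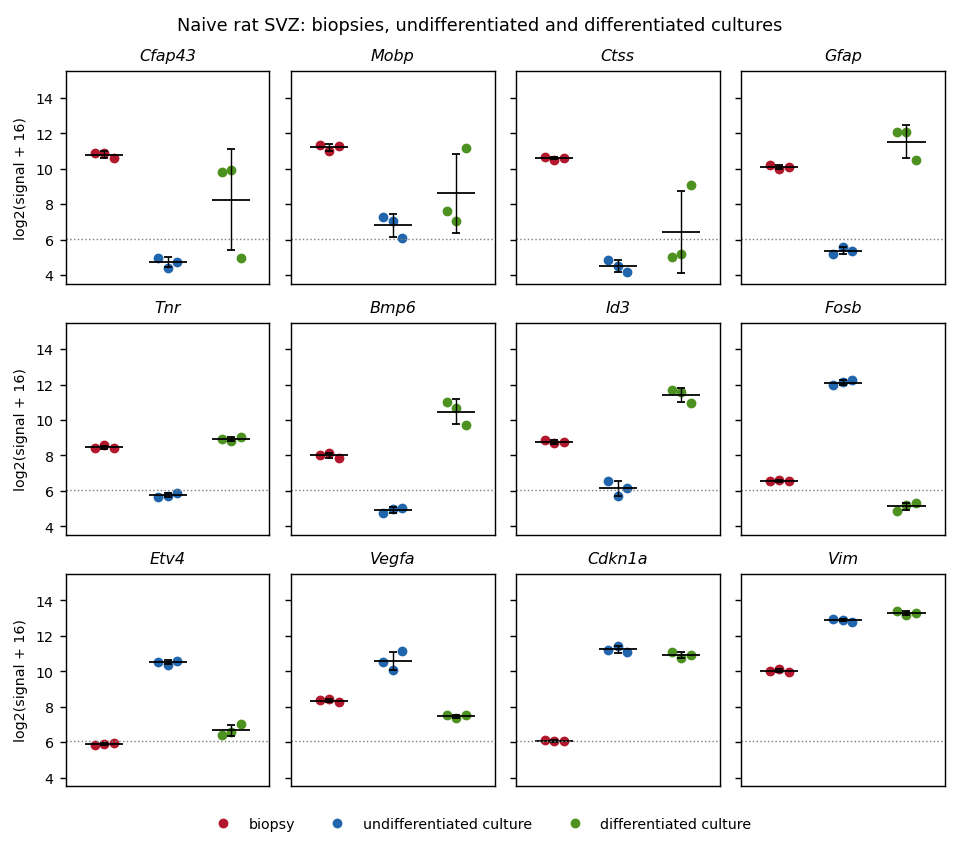
Signals of 12 genes as log2(signal + 16) (y axis) in 3 naive SVZ biopsies (red), 3 undifferentiated cultures (blue) and 3 differentiated cultures (green); points are arrays in replicate order, black bars the mean and whiskers 1 SD, and the dotted line a signal of 50. Replicate 3 of the differentiated cultures reads low for Cfap43 and high for Mobp and Ctss, and Cdkn1a and Vim stay above the biopsies in both kinds of culture.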

How the data were processed

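Total RNA was labelled with biotin and hybridised to 1 Affymetrix gene-level array per sample. The authors deposited linear intensity values per probe set, which per the file headers are PLIER summaries after GC-based background correction and global median normalization. The submitters' processing notes list Affymetrix Expression Console. The genome build was not given in the sources used here. Of 29215 probe sets, 27342 main ones were used; 19852 carried 1 symbol, 18580 of these matched RefSeq (GRCr8), and 1407 with several symbols and 6083 with none are not named.

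From these intensities log2(signal + 16) was computed and fitted with limma 3.58.1 (R 4.3.3), and p-values were adjusted by Benjamini-Hochberg over every probe set that exceeded 50 on 3 or more of the arrays fitted. Figures and counts were made in Python 3.11.15. The fits were tested on simulated arrays with independent noise, the cultures' spread in both groups and few probe sets changed. That run cannot speak to normalization, unequal spread or replicates that depend on each other. No detection calls were used, and the number of arrays limits the precision. Alternatives were a pseudocount of 1, no signal filter, quantile normalization, scaling to the 75th percentile, all 18 groups in 1 fit, the replicate block, each array left out, and the methods' t-test.

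The groups and the 31 gene lists, taken from general knowledge, were chosen with earlier results of these data known. Genes were named by a rule: the 15 highest and 15 lowest, and in each list the called members with the largest differences, those that ran against the list by 2 or more, and the smallest difference. Acsbg1, Arc, Cdk1, Dusp1, Egr1, Egr2, Gpr17, Ier2, Insm1, Jund, Msi1, Mycn, Neu4, Nrgn, Pdgfra, Rarres2, Sall1, Slc1a3, Sox2, Sox10, Sox11 and Ttr, and the promoters shown, were chosen after their values were seen.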

Additional observations from a re-analysis of the deposited data

Results flagged for a closer look

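In 4 probe sets the difference between SVZ biopsy and undifferentiated culture itself differed between naive rats and rats with EAE, by limma on the 12 arrays with Benjamini-Hochberg adjustment. The difference of differences, naive minus EAE, was -2.56 on the log2 scale for Cd74, -2.67 for RT1-Da, -1.65 for LOC686547 and -1.23 for a probe set with no symbol. Neither Cd74 nor RT1-Da passed with all 18 groups in 1 fit, and RT1-Da read below 50 on every naive array. LOC686547 had 72.4, 51.7 and 73.8 in naive biopsies, against 26.7, 33.1 and 28.6 in naive cultures, and 212, 287 and 252 in EAE biopsies, against 35.2, 28.3 and 29.6 in EAE cultures (SE 0.18, adjusted p = 0.00183). The probe set with no symbol had 62.2, 84.6 and 86.6 in naive biopsies, against 62.5, 78.0 and 83.8 in naive cultures, and 86.5, 102 and 88.4 in EAE biopsies, against 32.1, 31.2 and 23.6 in EAE cultures (SE 0.18, adjusted p = 0.0282); for it the cultures of the 2 kinds of rats were the arrays that stood apart.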

How the results depend on the processing

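The counts of called probe sets in the naive, EAE and differentiated-culture contrasts, and the 4-fold count in the naive contrast, stayed within 1.5 times under every alternative run. With 1 array left out the naive contrast gave 14050 to 14951 calls and 1979 to 2037 at least 4-fold, the EAE contrast 14829 to 15312, and the contrast with differentiated cultures 10211 to 14065, the last without replicate 3 of those cultures. The difference of differences gave 2 calls with quantile normalization, 1 with scaling to the 75th percentile and 1 with all 18 groups in 1 fit; with 1 array left out it gave 1 to 9, namely 1 without naive culture replicate 2, 9 without naive culture replicate 3 and 7 without EAE culture replicate 3. Without the signal filter 10913 probe sets were higher and 8605 lower in biopsies. Replicate numbers were also tried as a block, though the numbers were not taken as pairs. Deviations of same-numbered naive biopsies and cultures correlated at -0.05 to 0.27. In the naive and EAE contrasts not every array correlated best with its own number. In the differentiated contrast each did, at 0.097, 0.13 and 0.057. With the block the naive contrast gave 14933 calls, 2005 at least 4-fold, and the EAE contrast 15221. The difference of differences gave 5 and the differentiated contrast 11760. Of the genes named, Dcx (0.033) and Cnp (0.11) changed sign with quantile normalization, and the cause was not tested. For 159 genes named, 2006 of 2067 values kept their direction and side of the threshold; 23 fell short of it and 20 passed it newly, among them Pdgfra (0.38), Egr4 (0.43) and Spred2 (0.28) with scaling to the 75th percentile and Slc17a7 (-0.37) with quantile normalization. Dcx, Cnp, Gpr17 and Msi1 missed it with all 18 groups in 1 fit, and Lhx6 (0.19) and Insm1 (0.49) with quantile normalization. Dmrta2 missed it without biopsy replicate 2 (-0.30), biopsy replicate 3 (-0.26) or culture replicate 3 (-0.22), Ttr without biopsy replicate 2 (0.28) or culture replicate 1 (0.44), and Egr4 passed it without culture replicate 2 (0.37), Gsx1 without biopsy replicate 1 (0.34), and Lmx1a without biopsy replicate 1 (0.37) or culture replicate 2 (0.37), or with the replicate block (0.27, adjusted p = 0.0405). Of 806 list counts, 784 stayed within 1.5 times; the endothelial, fatty acid, glycolysis and BMP counts that moved stand beside their results. Counts that were 0 and stayed 0 are among the 784, which raises that number. Regional factors gave 2 and ribosome biogenesis 1 at least 4-fold lower without culture replicate 3, and likewise 2 without biopsy replicate 2 and 1 without biopsy replicate 1. Signals at or below 50 limit a fold to a bound, which reached 4-fold for 4 of 5 GABA and cholinergic, 4 of 7 ciliary, 3 of 4 astrocyte and 2 of 3 pericyte genes so limited.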
